A study of Mus musculus with 18 samples.

Results

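Sparse CpG tiles at middle methylation are stretches of the mouse genome in which few CpGs were read and the CpGs were, on average, neither unmethylated nor fully methylated. They were chosen from bisulfite sequencing of mammary epithelial cells by a rule on measured values. CpGs with at least 5 reads in each of 18 libraries were summed into 1000-bp tiles of chromosomes 1 to 19. A tile was kept where it held 3 to 9 such CpGs and where the mean of its 18 methylation levels lay at 20 to 80%. The methylation level of a tile is the percentage of its reads that were methylated. The rule kept 15544 tiles, holding 61888 CpGs, of 77064 tiles with at least 3 covered CpGs (20.2%). They made up 26.4% of the 58868 autosomal tiles with 3 to 9 covered CpGs.

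The libraries came from mammary glands of female C57BL/6 mice, a standard inbred strain. One pregnant group held days 10, 16 and 19 of pregnancy, one retired group held retired breeders, whose age the labels do not give, and one virgin group held mice of 3 and 9 weeks. At each of these 6 stages the gland had been digested and 3 epithelial populations purified, labelled mammary epithelial stem cells, luminal progenitor cells and mature luminal cells, which gives 1 library per cell type and stage. The stages therefore serve as replicates, 3 pregnant, 1 retired and 2 virgin libraries per cell type. Whether each library came from its own animals, or from pooled ones, is not in the labels, so p-values measure only the spread between these libraries, which includes the differences between stages and may be partly technical. Ages are labelled for the virgin mice only, so a part of age and a part of reproductive state cannot be told apart. No source used here gives the sorting markers, and methylation levels alone gave no check of the labelled cell types.

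DNA methylation in mammals sits mostly on cytosines of CpG pairs. CpG-rich promoters, called CpG islands, are usually unmethylated, and most other CpGs are methylated in most cells. A middle level arises where some cells, or 1 of the alleles of a cell, carry the mark and others do not, or where methylated and unmethylated CpGs lie close together. Such levels are known from the edges of islands, from distal regulatory elements whose state differs between cell types, and from imprinted regions. Luminal progenitors and mature luminal cells line the ducts and alveoli of the gland, and the stem fraction is usually taken from the basal layer. Each library reads a population of cells, so a change in the make-up of a population and a change within its cells cannot be told apart.

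The assay, multiplexed reduced representation bisulfite sequencing, cuts DNA at CCGG with MspI and reads the fragment ends after bisulfite treatment, which converts unmethylated cytosines. It reaches CpG-rich DNA best, and covered 711980 CpGs in all libraries of 1485193 listed in any. Library totals were 17513287 to 117922522 reads over CpGs, with 10 to 70 reads at the median CpG. At the sparse middle tiles the median reads per tile were 60 in the shallowest library, retired mature cells, and 363 in the deepest, virgin week 9 mature cells. For the stem cells the medians were 165, 96 and 113 reads at days 10, 16 and 19 of pregnancy, against 188 and 246 in virgin weeks 3 and 9, so the pregnant libraries were the shallower ones. The virgin week 9 mature library differed from the other mature libraries at these tiles in its likeness to pregnant stem cells. After removal of each tile's mean its levels correlated across the 15544 tiles with those of the pregnant stem libraries of days 10, 16 and 19 (Pearson's r = 0.455, 0.466 and 0.438) and inversely with the virgin week 3 mature library (r = -0.340). The other mature libraries had r of at most 0.080 with those stem libraries. An inverse r was not particular to it, as day 10 mature cells had r = -0.342 with day 19 and -0.321 with retired mature cells. The virgin week 9 mature library had r = 0.331 with the retired stem library, but r = -0.126 and -0.156 with the virgin stem libraries of weeks 3 and 9. In its likeness to the pregnant and retired stem libraries it goes against its label, while it was not like the virgin ones. Whether it holds the cells its label names was not tested. Other libraries were also most similar to one of another cell type, as given below. The comparisons of mature cells are given with and without it.

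The word sparse describes the covered CpGs, and the files partly go against it as a property of the DNA. The median sparse middle tile had 5 listed CpGs, of which at least 3 were covered everywhere. All listed CpGs were used in 7385 tiles (47.5%), and 1232 tiles (7.93%) had 10 or more listed CpGs, with 57 in the fullest. Sparse tiles under 20% had a median of 9 listed CpGs, and 47.1% of them had 10 or more. Sparse tiles over 80% had a median of 5, and 14.7% had 10 or more.

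Most of the sparse middle tiles lay near the upper limit. The quartiles of their mean level were 46.3, 64.3 and 74.3%. There were 5882 tiles (37.8%) at 70 to 80% and 3147 (20.2%) at 60 to 70%, but 1478 (9.51%) at 20 to 30%. Sparse tiles as a whole had peaks under 5% and at 90 to 95%, with no separate peak in the middle. A tile was less often kept the more covered CpGs it had. Of the sparse tiles with 3 CpGs 7908 (32.1%) were at middle methylation, against 3791 (28.8%) with 4 CpGs and 185 (8.52%) with 9 CpGs. The share by chromosome was between 21.8% on chromosome 3 and 30.2% on chromosome 11. These values describe the selection itself. The levels ran through both limits without a gap. At the lower limit chr6:113421001-113422000 (20.001%) and chr8:28370001-28371000 (20.003%) fell just inside, and chr11:21899001-21900000 (19.996%) and chr4:49535001-49536000 (19.991%) just outside. At the upper limit chr17:8496001-8497000 (79.998%) and chr10:86187001-86188000 (79.997%) fell just inside, and chr5:123212001-123213000 (80.002%) and chr15:82193001-82194000 (80.003%) just outside. Positions are those of mm9, the build named in the submitters' processing notes, and no gene or sequence is assigned to them because no annotation of that build was used here.

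**Figure D1:**
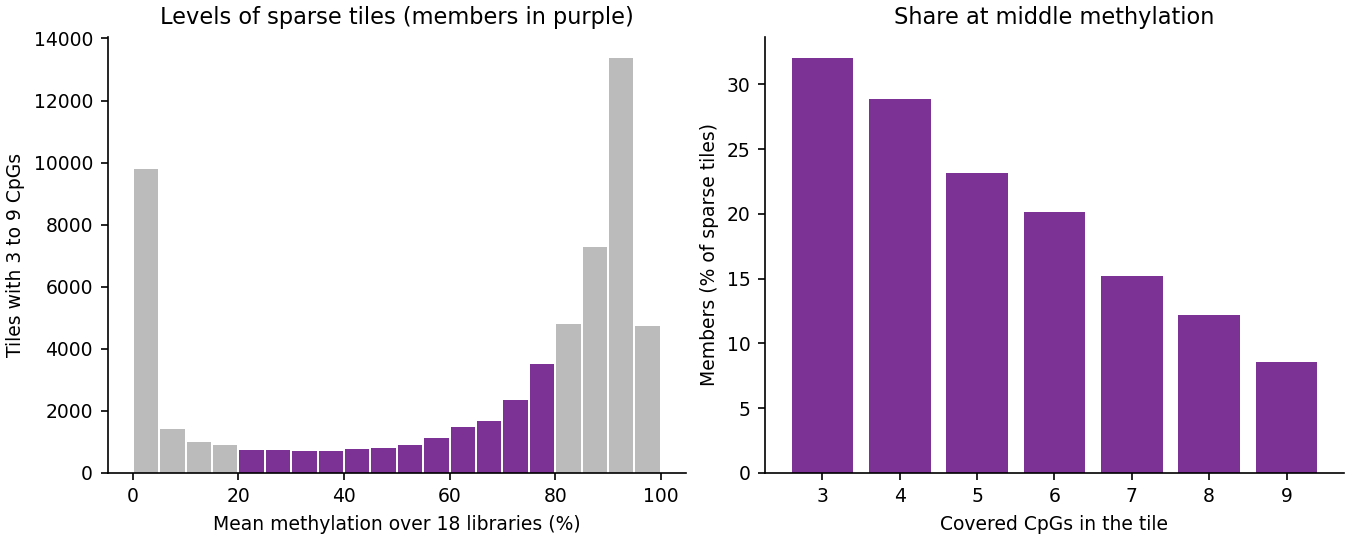
Left, number of sparse tiles (3 to 9 covered CpGs) against mean methylation over 18 libraries in percent, with the sparse middle tiles in purple. Right, share of sparse tiles at 20 to 80% against covered CpGs in the tile: it was 32.1% at 3 CpGs and 8.52% at 9.

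Within the tiles, most single CpGs were at middle methylation themselves, though in most tiles not all of them were. The rule set the level of a tile from these same CpGs, so their shares partly describe the selection. Of the 61888 CpGs, 68.3% had a mean level of 20 to 80% themselves, 8.13% lay under 20% and 23.6% over 80%. A tile was called uniform where all its CpGs lay at 20 to 80%, which held for 4932 tiles (31.7%). It was called mixed where at least 1 CpG lay under 20% and at least 1 over 80%, which held for 1078 tiles (6.94%). The remaining tiles had ends of 1 kind, with 7379 (47.5%) holding CpGs over 80% only and 2155 (13.9%) holding CpGs under 20% only. The number of CpGs bears on these classes. Uniform tiles made up 39.5% of those with 3 CpGs and 14.6% of those with 9, while mixed tiles made up 4.32% and 24.9%. The gap between the highest and the lowest CpG of a tile had a median of 20.6 points in uniform tiles and 82.8 points in mixed tiles.

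Neighbouring CpGs were more alike the closer they lay. In the sparse middle tiles the median difference between neighbours was 9.13 points at 2 to 9 bp (10924 pairs), 15.5 points at 50 to 99 bp (8199 pairs) and 32.9 points at 400 bp or more (1221 pairs). In sparse tiles over 80% the corresponding medians were 4.42, 4.58 and 7.85 points, and in sparse tiles under 20% they were 0.248, 0.738 and 2.56 points. Levels close to either end leave less room for a difference, so these comparison tiles had to be smoother. CpGs of 1 tile can share reads and MspI fragments, and the pairs are not independent.

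**Figure D2:**
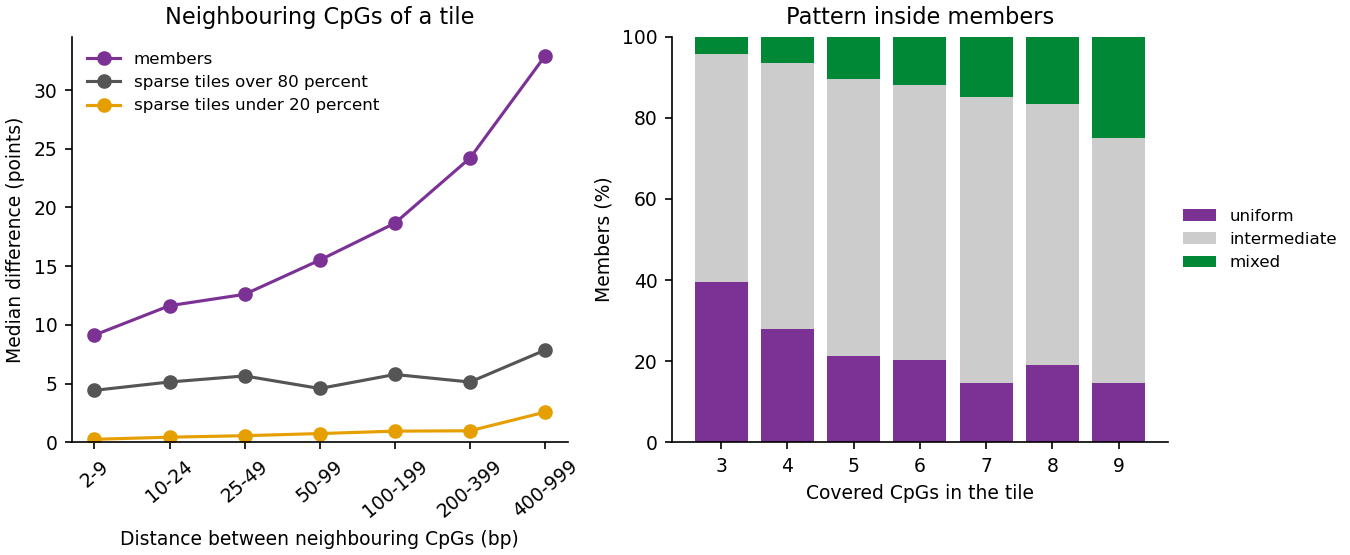
Left, median difference in mean level between neighbouring CpGs of a tile, in points, against their distance in bp, for the sparse middle tiles (9.13 points at 2 to 9 bp, 32.9 at 400 bp or more) and for sparse tiles over 80% and under 20%. Right, share of uniform, intermediate and mixed tiles in percent against covered CpGs per tile; mixed tiles made up 4.32% at 3 CpGs and 24.9% at 9.

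The deepest mixed tiles show that a tile level can be set by a few heavily read CpGs. In chr19:51217001-51218000, which had 897 to 6026 reads per library, the CpGs at 51217053 and 51217066 had mean levels of 11.7 and 17.6% with at least 346 and 382 reads in every library. Its other 7 CpGs had levels of 86.8 to 99.2%, and the shallowest had 6 reads. The tile level of 26.9% thus followed the pair with most reads. In chr6:109455001-109456000 the level at 109455245 was 15.0% with at least 248 reads, 2 further deep CpGs at 109455314 and 109455322 stood at 30.8 and 27.2%, and the 6 shallow ones at 64.1 to 92.6%. In chr17:3082001-3083000 the CpG at 3082449 stood at 93.7% and the one at 3082934 at 5.92%, 485 bp apart. Over all sparse middle tiles such weighting was uncommon. With each CpG given equal weight 516 tiles (3.32%) had a mean level outside 20 to 80%, and the median change was 1.05 points.

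CpGs that the rule did not use fell into the same level class in most but not all tiles. CpGs of the tile that had fewer than 5 reads in some library, and so were left out, had at least 20 reads in all in 8068 of the sparse middle tiles. Their median level was 69.1%, and in 56.0% of these tiles it lay at 20 to 80%. In 34.9% it lay over 80% and in 9.11% under 20%. By comparison, the unused CpGs of sparse tiles under 20% were under 20% in 91.9% of tiles, and those of sparse tiles over 80% were over 80% in 84.0%. Unused CpGs can lie on the same fragments as the CpGs the rule used, and fragments were not mapped here.

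The tiles next to them fell into all 3 level classes. An adjoining tile with at least 3 covered CpGs was present for 2753 of the sparse middle tiles (17.7%). Of these 2990 adjoining tiles 1000 (33.4%) lay under 20%, 1015 (33.9%) at 20 to 80% and 975 (32.6%) over 80%. With adjoining tiles of at least 1 covered CpG (6424 tiles) the shares were 21.8, 37.9 and 40.3%, so the even split held for the better covered neighbours only. Tiles next to sparse tiles under 20% were also under 20% in 89.5% of cases, and tiles next to sparse tiles over 80% were over 80% in 79.98%. Most sparse middle tiles stood alone, with 14660 single tiles, 412 runs of 2 and 20 runs of 3. Dense tiles with at least 20 CpGs and a level under 20%, which are the most island-like in these files, adjoined 0.914% of the sparse middle tiles, against 10.5% of sparse tiles under 20% and 0.0795% of sparse tiles over 80%. A neighbour without 3 covered CpGs counts here as not dense. Of the tiles with a covered neighbour, 5.16% of the sparse middle tiles (142 of 2753) adjoined such a dense tile, against 19.5% of sparse tiles under 20% and 0.400% of sparse tiles over 80%.

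Averaged over the 15544 tiles, methylation was lowest in the pregnant stem libraries. The stem mean levels were 57.2, 55.3 and 55.4% at days 10, 16 and 19 of pregnancy, 58.8% in retired breeders and 60.1 and 61.0% in virgin weeks 3 and 9. Each pregnant stem library was lower than either virgin one, with the retired library between. Pregnant stem libraries averaged 56.0 ± 1.04% and virgin ones 60.6 ± 0.656% (SD, n = 3 and 2), a difference of -4.60 points. Over all 77064 tiles the same groups averaged 55.0 and 56.4%, a difference of -1.41 points. As the tiles were chosen with these data known, no p is attached to these means.

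The luminal populations did not move in the same way. Progenitor libraries stood at 60.9, 60.05 and 59.8% in pregnancy, 60.4% in retired breeders and 59.0 and 59.2% in virgin mice. Every pregnant progenitor library was higher than either virgin one, by 1.10 points on average (60.2 ± 0.539% and 59.1 ± 0.141%). By the median in place of the mean over tiles the difference was 0.653 points, and the groups overlapped, with 66.2, 64.7 and 63.8% in pregnancy and 63.5 and 65.0% in virgin mice. Mature libraries stood at 57.7, 59.0 and 60.8% in pregnancy, 62.1% in retired breeders and 61.2 and 57.6% in virgin weeks 3 and 9. The mature groups overlapped, with a difference of -0.257 points. Without the virgin week 9 library it was -2.07 points and without the virgin week 3 library 1.56 points, so its sign turned on which virgin library was used.

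**Figure D3:**
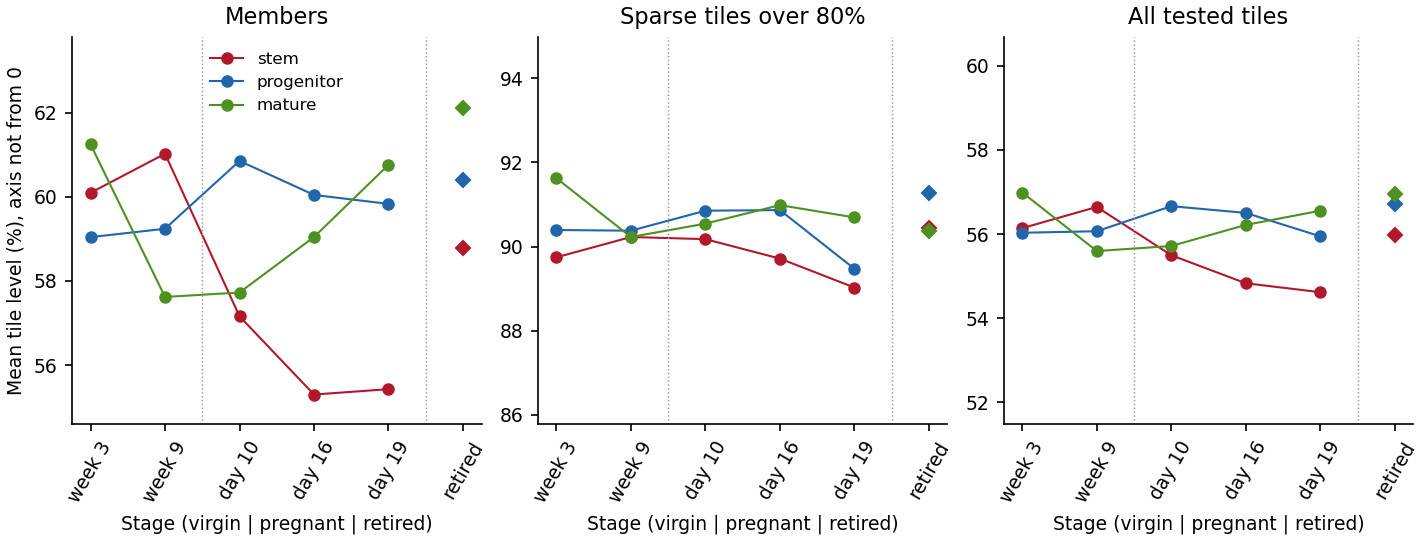
Mean methylation level in percent (axes not from 0) of the sparse middle tiles, of sparse tiles over 80% and of all tested tiles, against stage; each point is 1 library, lines join the 5 dated stages of a cell type and diamonds are retired breeders. At the sparse middle tiles the pregnant stem libraries (55.3 to 57.2%) lie below the virgin stem libraries (60.1 and 61.0%).

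The lower stem mean came with more tiles at the low end, while the shares at the high end overlapped between the groups. Reads were thinned to 20 per tile and library so that depth was equal, which kept 14782 tiles and left out 762. The share of sparse middle tiles under 20% in stem cells was then 7.07, 8.74 and 6.72% at days 10, 16 and 19, against 2.69 and 3.29% in virgin weeks 3 and 9. Without thinning it was 6.81, 9.19 and 6.55%, against 1.73 and 2.39%. The share over 80% after thinning was 13.0, 12.1 and 9.65% in pregnancy and 12.0 and 15.5% in virgin weeks 3 and 9. The groups overlapped there, with day 19 under both virgin libraries.

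Tile by tile, the stem differences went both ways, with more tiles lower than higher in pregnancy, here and over all tested tiles. The median difference between pregnant and virgin stem cells was -3.20 points, and 63.2% of the sparse middle tiles were lower in pregnancy. Over all tested tiles the median was -0.221 points and 58.3% were lower. A level lower by at least 10 points was seen in 28.6% of the sparse middle tiles and a level higher by at least 10 points in 11.4%, against 8.18% and 3.44% of all tested tiles. The difference was greatest at the less methylated tiles, with a median of -6.87 points at 20 to 30% and -1.47 points at 70 to 80%. The share of lower tiles by chromosome was between 61.2 and 65.1%. Tiles that lie near either end of the scale have less room to change, so sizes in points are not on an equal footing between middle tiles and the rest.

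The median stem difference was larger at tiles that were uniform inside. Uniform tiles had a median difference of -7.42 points and were lower in pregnant stem cells in 67.4% of cases. Mixed tiles had a median of -1.37 points with 61.5% lower, and the intermediate ones -2.35 points with 61.2% lower. In the stem libraries uniform tiles averaged 49.1, 46.2 and 47.4% at days 10, 16 and 19 of pregnancy, 51.6% in retired breeders and 55.1 and 56.6% in virgin weeks 3 and 9. Mixed tiles averaged 56.0, 54.8 and 55.0% in pregnancy, 57.4% in retired breeders and 57.1 and 57.8% in virgin mice. The pregnant and virgin libraries did not overlap in either class, and the retired one lay between them in uniform tiles and within the virgin range in mixed tiles. Uniform tiles also had a lower mean level, 53.1% against 56.5% for mixed and 62.7% for intermediate tiles. The classes were set from the same libraries, and CpGs near either end have less room to change. The part of the level and of this limit in the difference was not tested.

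In 4631 sparse middle tiles (29.8%) the 3 pregnant stem libraries were each lower than either virgin one, and in 1805 (11.6%) each was higher. Over all tested tiles these shares were 18% and 8.06%. In progenitor cells 780 tiles (5.02%) had all pregnant libraries below and 1421 (9.14%) had all above, against 8.24% and 7.89% of all tested tiles. In mature cells the counts were 1061 (6.83%) below and 839 (5.40%) above, against 8.72% and 6.57%. Both luminal counts of lower tiles were under the share in all tiles, and the stem count of lower tiles was over it. Adjoining pairs of sparse middle tiles, 452 in all, had the same direction of the stem difference in 286 pairs (63.3%), with a correlation across pairs of r = 0.478. In progenitor cells the same direction was seen in 57.5% (r = 0.0616) and in mature cells in 58.0% (r = 0.341). The stem minus progenitor and stem minus mature differences across stages had r = 0.474 and 0.476 over the same pairs. Where most tiles lie on one side of 0, many pairs share a direction without being alike.

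Single tiles were tested by a quasi-binomial logistic regression on methylated and total reads, with 1 estimate of spread over all 18 libraries and Benjamini-Hochberg adjustment over all 77064 tiles. A tile was called where the adjusted p was under 0.05 and group means differed by at least 10 points. Between pregnant and virgin stem cells 83 sparse middle tiles (0.534%) were called, 67 lower and 16 higher, while 0.158% of all tested tiles were called (0.122% lower and 0.0363% higher). The calls lay close to the threshold, with adjusted p of 0.0314 to 0.0497 in this regression. Differences were -11.8 to -60.6 points at the falling tiles, with a median of -34.0, and 22.4 to 43.9 points at the rising ones, with a median of 28.2. In all 83 the pregnant and virgin stem libraries did not overlap, and they lay on all 19 autosomes. By inner pattern 37 were uniform, 46 intermediate and 0 mixed. The count depends heavily on the spread estimate. It was 0 with limma on log2 ratios, 0 from the 5 stem libraries alone, and 881 (760 lower and 121 higher) without either virgin mature library, among 1245 in all tiles. Without the day 19 mature library it was 308, among 494 in all tiles. The count was 0 without the day 10 or day 16 stem library, and without the day 16 progenitor or day 16 mature library. The other libraries are given in the last section.

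The 67 falling tiles were about equally low at each day of pregnancy. Their stem means were 25.1, 22.8 and 27.9% at days 10, 16 and 19, 33.9% in retired breeders and 57.4 and 62.7% in virgin weeks 3 and 9. Since these tiles were picked by this contrast, the stem values are a description. In the retired stem library, which the contrast did not use, the mean lay closer to the pregnant libraries than to the virgin ones. At the same tiles progenitor cells had a median difference of 3.18 points, with 21 lower and 46 higher in pregnancy, and mature cells 4.06 points, also with 21 lower and 46 higher. The virgin week 9 mature library averaged 38.4% at these tiles and the virgin week 3 one 44.4%. The 16 rising tiles averaged 68.8, 71.4 and 67.1% in pregnant stem cells, 64.7% in retired breeders and 42.5 and 35.4% in virgin weeks 3 and 9. There, mature cells had a median of -7.40 points, with 13 lower and 3 higher, and progenitor cells -1.15 points, with 9 lower and 7 higher.

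The falling tiles with the most reads in their shallowest virgin or pregnant stem library, other than tiles reported for the whole data set, were spread over the level range. The tile chr12:113548001-113549000 (6 CpGs) had stem levels of 14.2, 3.68 and 15.4% at days 10, 16 and 19, against 47.0 and 40.5% in virgin weeks 3 and 9, with 10.8% in retired breeders. The pregnant libraries were far below both virgin ones (difference -32.7 points, adjusted p = 0.0463 in the quasi-binomial test). The other cell types had 12.6 to 42.3% there, and of these the retired mature library alone reached the virgin stem levels. The tile chr19:40424001-40425000 (5 CpGs) had 13.1, 11.2 and 19.4% in pregnant stem cells, against 43.9 and 53.0% in virgin ones, with 14.6% in retired breeders. Its difference was -33.9 points (adjusted p = 0.0463), and in progenitor cells all 3 pregnant libraries (35.5, 36.7 and 47.4%) lay above both virgin ones (30.9 and 27.3%). The stem and progenitor libraries thus moved in opposite directions at this tile, though the difference of the effects did not pass the test (adjusted p = 0.192).

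The tile chr8:86550001-86551000 (9 CpGs) had 28.9, 23.4 and 28.9% in pregnant stem cells, against 46.9 and 51.3% in virgin ones, with 40.4% in retired breeders. Its difference of -22.1 points had an adjusted p of 0.0443, and here the retired library lay between the groups. Mature cells had 45.9, 55.1 and 52.3% in pregnancy and 44.7 and 43.4% in virgin mice, the opposite order. The tile chr7:35538001-35539000 (8 CpGs, uniform) had 34.3, 35.1 and 45.7% in pregnant stem cells, against 59.2 and 67.5% in virgin ones (difference -24.98 points, adjusted p = 0.0486). Its retired stem library had 43.5%, within the pregnant range. The tile chr7:25435001-25436000 (6 CpGs) had the smallest called fall, with 66.3, 72.8 and 65.4% in pregnant stem cells, against 80.6 and 79.5% in virgin ones (difference -11.8 points, adjusted p = 0.0467). Its virgin libraries were close together (SD 0.779 points).

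**Figure D4:**
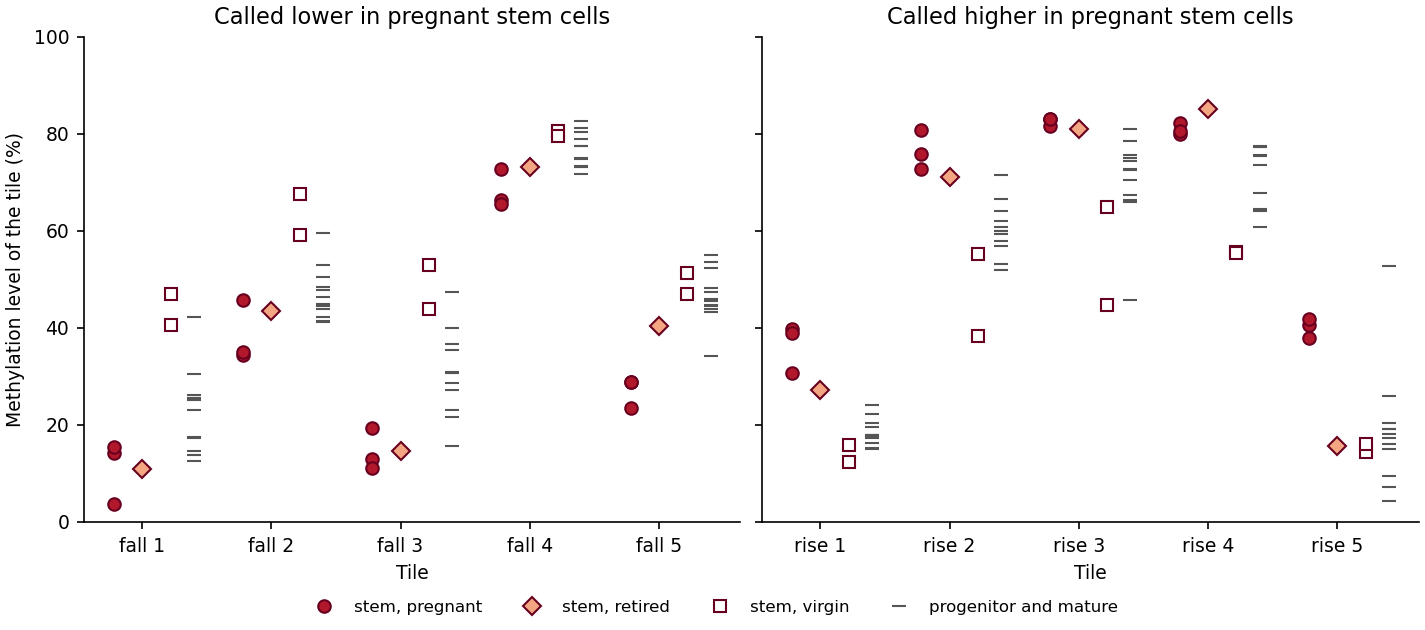
Methylation level in percent of the 10 tiles named for pregnancy in stem cells, ordered by the reads of their shallowest virgin or pregnant stem library. Falls 1 to 5 start at chr12:113548001, chr7:35538001, chr19:40424001, chr7:25435001 and chr8:86550001, and rises 1 to 5 at chr2:32022001, chr6:51332001, chr10:120872001, chr8:111237001 and chr5:120660001. Symbols are pregnant stem libraries (filled circles), the retired stem library (diamond), virgin stem libraries (open squares) and the 12 progenitor and mature libraries (dashes). At each tile the pregnant circles and the virgin squares do not overlap; at the tile rise 5 the retired diamond (15.7%) lies with the virgin libraries (14.5 and 16.0%).

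Among the rising tiles the same rule gave 5, of which 2 started from a low level. The tile chr2:32022001-32023000 (6 CpGs) had 30.6, 39.8 and 38.9% in pregnant stem cells, against 12.4 and 15.8% in virgin ones, with 27.2% in retired breeders. Its difference was 22.4 points (adjusted p = 0.0463), and the 12 progenitor and mature libraries, at 15.1 to 24.1%, were all below the pregnant stem libraries. The tile chr5:120660001-120661000 (5 CpGs) had 40.6, 41.8 and 37.9% in pregnant stem cells, against 14.5 and 16.0% in virgin ones. Its difference was 24.8 points (adjusted p = 0.0466), and its retired stem library, at 15.7%, lay with the virgin libraries. The retired mature library was the highest of all at this tile, with 52.8%.

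The other 3 rising tiles were well methylated. The tile chr8:111237001-111238000 (5 CpGs) had 82.2, 79.9 and 80.7% in pregnant stem cells, 85.1% in retired breeders and 55.7 and 55.5% in virgin mice. Replicates were close in both groups, and the difference was 25.3 points (adjusted p = 0.0424). In mature cells all 3 pregnant libraries (64.3, 60.8 and 67.9%) lay below both virgin ones (77.3 and 77.3%). The tile chr6:51332001-51333000 (7 CpGs, uniform) had 75.9, 80.7 and 72.8% in pregnant stem cells, against 55.2 and 38.4% in virgin ones, a difference of 29.7 points (adjusted p = 0.0443). The tile chr10:120872001-120873000 (9 CpGs) had 83.1, 81.6 and 83.0%, against 65.0 and 44.8%, a difference of 27.7 points (adjusted p = 0.0476). In both tiles the virgin libraries were far apart, week 3 above week 9, and the retired stem library (71.1 and 81.0%) was outside the virgin range on the side of pregnancy. Each of these 10 calls was lost under most alternatives, being kept under 9 to 11 of 23.

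In progenitor and mature cells no sparse middle tile passed the test for pregnancy, and 0% of all tested tiles did. At an unadjusted p under 0.05 there were 468 sparse middle tiles in progenitor cells and 797 in mature cells, against 3.79% and 5.11% of all tested tiles. Those are 3.01% and 5.13% of the sparse middle tiles, near or under the share in all tiles. The comparable stem count was 4115 (26.5%), of which 3067 were lower and 1048 higher, against 14.2% of all tested tiles (10.1% lower and 4.12% higher). The limma test also gave 0 in both luminal populations. A difference between the stem effect and the progenitor effect was called at 0 sparse middle tiles, and 3060 (19.7%) had an unadjusted p under 0.05, against 10.4% of all tested tiles. Between the stem and mature effects it was called at 0, and 3388 (21.8%) had an unadjusted p under 0.05, against 11.3% of all tested tiles. With the stage as a block the calls were also 0, with a smallest adjusted p of 0.0642 for stem against progenitor and 0.0585 for stem against mature effects. No single tile thus passed the test of a difference between the stem and luminal effects in either fit. With single libraries left out some of these counts were no longer 0, as given in the last section. The matching shares over all tiles are not given for those fits, so the changed counts are no result about these tiles.

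Retired breeders, with 1 library per cell type, were set against virgin mice over the 3 cell types together. No sparse middle tile was called in the quasi-binomial test, and 849 (5.46%) had an unadjusted p under 0.05, against 5.32% of all tested tiles. The limma test called 13, while it called 0.0493% of all tested tiles. Without the virgin week 9 mature library the quasi-binomial count was also 0. The retired libraries stood at 58.8% in stem, 60.4% in progenitor and 62.1% in mature cells, against virgin means of 60.6, 59.1 and 59.4%. The direction thus differed between cell types, with the stem library below its virgin range and both luminal libraries above theirs. The retired libraries were also the shallowest in the luminal populations, with medians of 61 and 60 reads per tile.

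Across stages, stem cells had the lowest and most variable mean level. The 6 libraries averaged 58.0 ± 2.40% in stem cells, 59.9 ± 0.687% in progenitor cells and 59.8 ± 1.90% in mature cells (SD, n = 6 each). Stem cells were above progenitor cells at weeks 3 and 9, by 1.06 and 1.78 points, and below them at the other 4 stages, most at day 16 (difference -4.75 points). The mean stem difference was -1.94 points from progenitor and -1.79 points from mature cells, and progenitor and mature cells differed by 0.150 points with a sign that changed from stage to stage. Without week 9, and so without the virgin week 9 mature library, the stem minus mature difference was -2.82 points, and without day 19 it was -1.08 points. The mature mean without that library was 60.2 ± 1.77% (SD, n = 5). None of the 3 differences over all stages exceeded the SD of the stem libraries.

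With the stage as a block, 0 sparse middle tiles were called between any 2 cell types, as were 0% of all tested tiles. At an unadjusted p under 0.05 there were 2225 sparse middle tiles (14.3%) for stem and progenitor cells, against 9.34% of all tested tiles, and 2367 (15.2%) for stem and mature cells, against 11.1%. For the luminal populations there were 815 (5.24%), against 5.98% of all tested tiles. Stem cells were below progenitor cells at every stage in 577 sparse middle tiles (3.71%) and above in 418 (2.69%), against 2.24% and 1.29% of all tested tiles. They were below mature cells at every stage in 499 tiles (3.21%) and above in 322 (2.07%), against 2.44% and 1.18%. Without the virgin week 9 mature library 109 sparse middle tiles were called between stem and mature cells, and without the virgin week 9 progenitor library 7 were. The matching shares over all tiles are not given, so these counts show only that the fit depends on single libraries. The limma test gave 0 in each comparison.

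The tiles with the largest stem and mature differences of 1 sign at all stages are given as values without a call. In chr13:115723001-115724000 (3 CpGs, uniform) stem levels were 47.2, 58.2, 78.2, 75.7, 84.1 and 75% from week 3 through to retired breeders, against mature levels of 19.8, 57.6, 25, 20.8, 24.7 and 24.6%. The mean difference was 41.0 ± 22.8 points (SD over 6 stages), and at week 9 it was 0.546 points. The adjusted p over all tiles was 0.193 with all libraries. Stem levels also exceeded mature ones in chr17:6960001-6961000 (68.0 ± 6.19% and 32.2 ± 18.0%) and chr17:31460001-31461000 (68.0 ± 8.69% and 35.8 ± 21.7%), with adjusted p of 0.153 and 0.202. In the opposite direction, chr7:37790001-37791000 (4 CpGs, uniform) had 34.7 ± 9.48% in stem and 69.8 ± 14.1% in mature cells, a difference of -35.0 points with the lowest adjusted p of these tiles, 0.0982. The tiles chr2:6021001-6022000 (27.2 ± 12.6% and 61.7 ± 17.5%) and chr4:149268001-149269000 (42.0 ± 11.9% and 72.1 ± 12.8%) also had lower stem levels. Progenitor means lay between the stem and mature means in all 6 tiles. In 5 of these 6 tiles the smallest difference was at week 9. Over the other 5 stages the mean differences were 49.1, 42.7 and 34.0 points at the tiles with higher stem levels and -37.8, -40.9 and -35.8 points at those with lower ones. In the quasi-binomial fit without the virgin week 9 mature library their adjusted p were 0.0462, 0.0432, 0.0777, 0.0488, 0.0787 and 0.0454. The tiles were picked by this same difference, and the library left out was from the stage with the smallest difference in 5 of them. Lower p-values were thus built into the choice, and a p under 0.05 here is no test of a difference.

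The SD of a sparse middle tile's 18 levels had a median of 8.75 points with quartiles of 6.52 and 11.8, where counting error alone would give a median of 4.24 points. The median ratio of the SDs was 2.08, against 2.59 in the 541 dense tiles at 20 to 80% and 1.48 in all tested tiles. The libraries are separate samples of different cell types and stages, so a ratio above 1 says little in itself. The ratio grows with depth, and at 100 reads or more in every library it was 2.68 in the sparse middle tiles (1308 tiles) and 2.59 in the dense ones (523 tiles). The SD was largest at a mean level of 40 to 50%, with a median of 11.1 points. A sparse middle tile stayed at 20 to 80% in all 18 libraries in 4601 cases (29.6%). In 393 cases (2.53%) it was under 20% in at least 1 library and over 80% in another. Of the sum of squares between libraries 19.96% lay between cell types, 26.9% between stages and 53.1% was left over, beside 11.8, 29.4 and 58.8% of the degrees of freedom. Over all tested tiles these shares were 17.9, 28.1 and 54.1%, so they were not particular to the sparse middle tiles. The share between cell types was 21.6% in the dense tiles at 20 to 80%. Taken tile by tile, its median was 12.1% in the sparse middle tiles, near its share of the degrees of freedom.

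Uniform tiles had the larger SDs and mixed tiles the smaller ones. Classes and SDs come from the same 18 libraries, and CpGs near either end have less room to vary. How far the order of the classes follows from that was not tested. The median SD was 11.4 points in uniform, 7.89 in intermediate and 6.35 in mixed tiles, with counting SDs of 4.56, 4.09 and 4.00. Among the 1308 tiles with at least 100 reads in every library the 4 steadiest were all mixed and the 4 most variable all uniform. The steadiest, chr8:30014001-30015000 (6 CpGs), had levels of 68.3 to 73.3% in the 18 libraries, with an SD of 1.28 points around 70.8%. Next came chr16:50773001-50774000 around 75.4%, chr5:127575001-127576000 around 65.6% and chr5:46206001-46207000 around 75.9%, with SDs of up to 1.66 points. No library departed from these means by more than a few points.

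The most variable, chr2:91337001-91338000 (6 CpGs), went nearly through the whole scale. Its stem levels were 3.53, 6.74 and 25.4% at days 10, 16 and 19, 38.8% in retired breeders and 68.4 and 78.4% in virgin weeks 3 and 9. Its progenitor levels ran from 14.6% in retired breeders to 76.4% at day 19, and its mature levels from 18.4% at day 16 to 94.9% in retired breeders. The pregnant stem libraries were the low ones in stem cells, but retired progenitor and day 16 mature cells were also low. The tile chr17:31985001-31986000 had 25.8, 32.6 and 29.8% in pregnant stem cells, 28.3% in retired stem cells and 43.5% in virgin week 9 mature cells, while the other 13 libraries had 61.2 to 95.4%. The tile chr2:75610001-75611000 had its lowest level, 10.5%, in day 19 stem cells and its highest, 85.9%, in retired progenitor cells. The tile chr12:77793001-77794000 followed another order, with 68.2 to 88.2% in all 6 stem libraries and 19.8 to 80.1% in the luminal ones.

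The same libraries tended to hold the extremes. Among the 1308 deep tiles the lowest level was in the day 16 stem library at 16.1%, in the day 16 mature library at 12.3% and in the day 19 stem library at 11.2% of tiles. The highest level was in the retired mature library at 16.1% and in the retired progenitor library at 12.3%. Shallow libraries reach extremes more easily, and these libraries had medians of 135 to 266.5 reads at the deep tiles, against 784.5 in the virgin week 9 mature library.

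After removal of each tile's mean, the pregnant and retired stem libraries formed the clearest group. Across the 15544 tiles the correlation was r = 0.585 between days 10 and 16 in stem cells, 0.470 between days 16 and 19 and 0.463 between days 10 and 19. The retired stem library had r = 0.349 to 0.435 with these 3. The virgin stem libraries correlated with each other at r = 0.344. Removing the mean pulls the average correlation slightly under 0, and correlated pairs share the tiles, the assay and partly the depth. Apart from the 6 pairs within that group, cell type and stage labels did not order the libraries by similarity. The mean r was then -0.049 within a cell type (39 pairs), -0.101 within a stage (18 pairs) and -0.082 where both differed (90 pairs). With those 6 pairs the mean within a cell type was 0.018. The most similar library was of the same cell type for all 4 libraries of that group and for 4 of the other 14. The virgin week 9 progenitor library was closest to the day 16 mature library (r = 0.546), the virgin week 3 stem library to the day 19 progenitor library (r = 0.496) and the virgin week 9 mature library to the day 16 stem library (r = 0.466). The first component of this variation held 29.0% and the second 19.6%. At single tiles the place of the virgin week 9 mature library varied. In chr17:31985001-31986000 above its 43.5% lay between the pregnant stem libraries (25.8 to 32.6%) and the other mature ones (61.2 to 95.4%). In chr5:120660001-120661000 it had 19.2%, against 37.9 to 41.8% in pregnant stem cells.

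**Figure D5:**
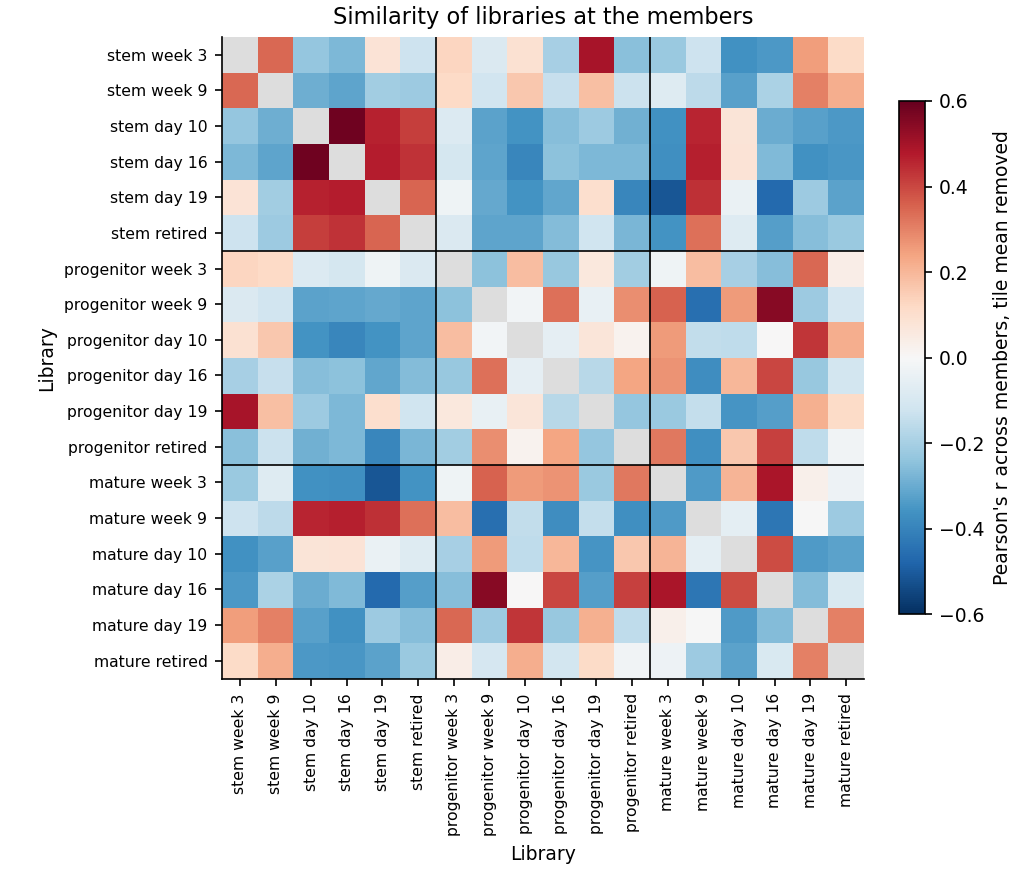
Pearson's r between each pair of the 18 libraries (both axes, by cell type and stage) across the sparse middle tiles after removal of each tile's mean; red is positive, blue negative, and the diagonal is left grey. The pregnant and retired stem libraries form a block of positive r (0.349 to 0.585), and the virgin week 9 mature library correlates with it (0.331 to 0.466).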

How the data were processed

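The authors deposited 1 file per library with no header, listing each CpG with its methylated and total read counts, on mm9 per the submitters' processing notes. The files of 11 libraries had 4 columns. The other 7 (day 16 progenitor, all day 19 and all retired) had 6 columns, whose deposited score was 1000 times the methylated share to within 0.5 and was not used further. Which aligner, methylation caller or filter was used is not given in the sources. Copies of a molecule made by PCR cannot be recognised in the read counts, so counting error is a lower limit.

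Methylated and total reads were summed over CpGs read 5 or more times in every one of 18 libraries, in 1000-bp tiles counted from position 0 of the file. Tiles of all chromosomes with at least 3 such CpGs were tested. A quasi-binomial logistic regression was fitted to the counts of each tile in Python 3.11.15 (numpy 2.4.6, scipy 1.17.1, pandas 2.3.3). The Pearson dispersion was moderated across tiles as squeezeVar of limma does it and kept from falling under 1, followed by an F test on the deviance. Pregnancy, its interactions with cell type and the retired libraries were tested with 9 groups of cell type and state. Cell types were tested with the stage as a block, since a stage label joins the libraries of 3 cell types. An adjusted p under 0.05 (Benjamini-Hochberg over 77064 tiles) and a difference of at least 10 points made a call. The alternative test was limma 3.58.1 (R 4.3.3) on log2 of (methylated + 1)/(unmethylated + 1). The regression was tested on simulated data.

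Tiles were named by rank: the 4 smallest and 4 largest SDs at 100 reads or more per library; the 5 deepest called falls and rises; the 3 largest stem minus mature differences of each sign at 50 reads or more with 1 sign in 6 stages; the 3 deepest mixed tiles; and 2 tiles on each side of each limit. The members, lists and comparisons were chosen with earlier results of these data known.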

Additional observations from a re-analysis of the deposited data

Results flagged for a closer look

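The mean level of the sparse middle tiles was lower in every pregnant stem library than in both virgin ones and was higher in every pregnant progenitor library than in both virgin ones, and the stem effect minus the progenitor effect was -5.70 points. By median tile levels the progenitor groups overlapped, with virgin week 9 (65.0%) above days 16 and 19 of pregnancy (64.7 and 63.8%). The difference of the effects was not tested, because the tiles were chosen with the data known.

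The 10 tiles named for pregnancy were picked to have stem libraries without overlap. At 7 of them the pregnant libraries of another cell type all lay on the opposite side of its virgin ones. Over all tested tiles, pregnant progenitor libraries lay all below the virgin ones in 8.24% and all above in 7.89%. For mature cells these shares were 8.72% and 6.57%, and either cell type could count here. The stem minus progenitor difference of effects was -44.6 points at chr19:40424001-40425000, -17.8 points at chr7:25435001-25436000 and 32.5 points at chr5:120660001-120661000. The tests of these differences across all tiles gave adjusted p of 0.192, 0.186 and 0.208, so none passed. The stem minus mature difference of effects was -14.6 points at chr7:25435001-25436000, -29.1 points at chr8:86550001-86551000, 41.7 points at chr6:51332001-51333000, 36.3 points at chr10:120872001-120873000 and 38.3 points at chr8:111237001-111238000. Their adjusted p were 0.0989, 0.0966, 0.0817, 0.0975 and 0.0817, and none passed. The tiles had been picked for a stem effect, so a larger stem effect there is partly a matter of choice.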

How the results depend on the processing

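Of 368 alternative values for 20 results other than single tiles, 318 were counted as kept and 0 reversed a call. Kept meant the same direction and side of the threshold, or a value counted as close to the reported one. Many of these were counts that stayed at 0, and differences near 0 could change sign and still count. The pregnancy difference in mature cells, -0.257 points, was 1.56 without the virgin week 3 mature library. The progenitor minus mature difference, 0.150 points, was -0.446 without day 10. For the 10 named stem tiles 97 of 230 kept the call. The 83 stem calls became 23 with 10 reads per CpG, 0 with 500-bp tiles, 0 with reads thinned to the shallowest library, 13 without CpGs above the 99th percentile of coverage and 0 with limma. Alternatives chosen after seeing the data gave 580 with the dispersion held at 1 before moderation (83 for the stem and mature difference of effects), 0 with a Wald test, 44 (11 of them among the 83) from the 11 files of 4 columns and 0 from the 5 stem libraries alone. Leaving out 1 library gave 0 to 881 calls. They were 881 without either virgin mature library, 361 without the virgin week 3 stem library, 308, 12 and 29 without the day 19 mature, progenitor or stem library, 6 without the day 10 progenitor library, and 0 without the virgin week 9, day 10 or day 16 stem, either virgin progenitor, day 16 progenitor or day 16 mature library. A group left with 1 library adds nothing to the spread and is assumed to vary like the others. The calls in all tiles shifted as well. They were 122 with all libraries, 494, 16 and 46 without the day 19 mature, progenitor or stem library, and 8 without the day 10 progenitor library. The cause of these shifts was not tested.

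Counts that were 0 became, without 1 library, 0 to 109 for stem against mature cells, 0 to 9 for the pregnancy comparison of mature cells, and for the stem effect 0 to 4 against the progenitor effect and 0 to 947 against the mature effect. Stem against mature cells gave 1 with 10 reads per CpG and 8 with no stage block; with no replicate block the other cell type comparisons gave 0. For pregnancy within a cell type no paired analysis was possible because a stage is either pregnant or virgin; the differences of effects with the stage as replicate block, added after seeing the data, gave 0 and 0 calls. Limma called 13 for retired breeders. The progenitor mean difference was 0.653 points from median tile levels, against 1.10. With 10 reads per CpG there were 6142 members. The median SD was 7.499 points at 100 reads or more, 8.69 with 10 reads per CpG, 9.97 with libraries thinned to the shallowest total and 12.7 with 20 reads per tile. Uniform tiles were 12.4% with limits of 30 and 70%, 35.3% with 10 reads per CpG and 19.6% at 5 to 9 CpGs, and mixed tiles 15.7, 6.87 and 12.6%. Adjoining tiles with at least 1 covered CpG were under, at and over middle methylation in 21.8, 37.9 and 40.3%. The mean stem difference kept between -5.20 and -4.14 points without single libraries.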
